A study of Mus musculus with 7 samples.

Results

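The MS4A family encodes small membrane proteins that cross the membrane 4 times and sit on blood and immune cells. Its members in the mouse lie side by side on chromosome 19. The 8 family genes described here, Ms4a1, Ms4a4a, Ms4a4b, Ms4a4c, Ms4a6b, Ms4a6c, Ms4a6d and Ms4a7, were picked by gene symbol from the 55335 rows of a count table and an FPKM table (fragments scaled to gene length and library size), with results of these libraries already known. Their values were therefore the ground on which they were chosen, and the difference between the groups is given as a description and not as a test of them. RNA was measured in group 2 innate lymphoid cells (ILC2s), which carry no antigen receptor and answer interleukin 33 through its receptor ST2, sorted from mouse hearts as cells positive for CD45 and ST2 and without lineage markers. The 3 naive libraries came from hearts of mice without a transplant, whose strain is not named. The 4 allograft libraries came from Balb/C hearts taken 7 days after grafting into C57BL/6 recipients, a pairing that rejects the heart acutely. Every library pooled cells of 4 to 7 hearts, so the pools and not the animals were the replicates, and the labels give no sex, age or genotype in either group and do not say whether the sorted cells of a graft stem from donor or recipient.

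Most MS4A proteins have no known enzymatic activity and work beside other receptors at the cell surface, where they tune signalling and calcium entry. Ms4a1 encodes CD20, the B lymphocyte protein that is the target of rituximab. Ms4a4b is known from T lymphocytes, where its protein associates with the costimulatory receptor GITR, and Ms4a6b is likewise known from T lymphocytes. Ms4a4a, Ms4a6c, Ms4a6d and Ms4a7 are better known from monocytes and macrophages.

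The 8 genes occupied 355 kb of chromosome 19 (GENCODE M21 annotation of GRCm38, the build that the submitters' processing notes name as mm10), and 11 genes of the family lay within that span. Several of them are close copies of each other. The coding sequences of Ms4a4b and Ms4a4c were identical at 91.7% of 678 aligned bases, those of Ms4a6b and Ms4a6c at 87.0% of 638, those of Ms4a6b and Ms4a6d at 84.9% of 717 and those of Ms4a6c and Ms4a6d at 81.3% of 636. All other pairs lay between 69.6% and 75.7%. The likeness extended upstream of the genes, as the 250 bases before the annotated start in RefSeq (GRCm38.p6) show. A promoter was matched for 6 of the 8 genes, and the 2 pairs of close copies are shown because they hold both genes with counts in all 7 libraries beside near copies whose counts differed between the naive libraries. Capitals mark runs of 12 or more bases that also occur in the window of the other gene of the pair, and all 4 windows lie on the + strand (Ms4a4b chr19:11443308-11443557, Ms4a4c chr19:11407411-11407660, Ms4a6b chr19:11518309-11518558, Ms4a6c chr19:11469118-11469367). The last capital stretch of Ms4a4b joins 2 such runs, which a lower-case base parts in Ms4a4c. The RefSeq starts of Ms4a4c and Ms4a6b lie inside the span that GENCODE gives these genes, so their windows do too.
Ms4a4b: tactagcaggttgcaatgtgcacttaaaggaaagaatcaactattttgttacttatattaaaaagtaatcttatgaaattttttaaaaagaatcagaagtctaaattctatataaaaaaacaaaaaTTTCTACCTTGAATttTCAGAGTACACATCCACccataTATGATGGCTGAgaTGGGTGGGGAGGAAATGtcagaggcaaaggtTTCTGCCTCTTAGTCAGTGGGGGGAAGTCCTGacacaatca
Ms4a4c: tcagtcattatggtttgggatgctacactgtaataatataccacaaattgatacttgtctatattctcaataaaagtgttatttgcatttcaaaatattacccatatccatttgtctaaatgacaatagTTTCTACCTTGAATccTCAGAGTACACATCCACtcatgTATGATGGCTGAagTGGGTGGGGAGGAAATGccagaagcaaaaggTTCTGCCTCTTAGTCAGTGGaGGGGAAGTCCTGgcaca
Ms4a6b: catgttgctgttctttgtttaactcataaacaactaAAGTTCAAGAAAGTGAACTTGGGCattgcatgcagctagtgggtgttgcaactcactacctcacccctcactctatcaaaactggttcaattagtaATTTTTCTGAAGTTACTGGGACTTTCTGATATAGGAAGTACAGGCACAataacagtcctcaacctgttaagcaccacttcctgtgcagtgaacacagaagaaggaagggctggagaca
Ms4a6c: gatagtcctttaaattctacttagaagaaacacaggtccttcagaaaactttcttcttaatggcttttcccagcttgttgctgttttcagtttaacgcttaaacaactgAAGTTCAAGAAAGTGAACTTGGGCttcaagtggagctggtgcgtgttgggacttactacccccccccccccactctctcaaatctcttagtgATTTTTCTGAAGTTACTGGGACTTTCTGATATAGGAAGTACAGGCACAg
In the aligned part the Ms4a4b and Ms4a4c windows were identical at 83.8% of 228 bases with a longest common run of 20. The Ms4a6b and Ms4a6c windows were identical at 88.4% of 173 bases with a longest common run of 48. The other pairs of matched windows reached 64.0% to 76.6% with no common run above 9 bases. The octamer ATGCAAAT, searched on both strands, occurred in 1.6% of 32851 promoters of this length and among the matched windows in that of Ms4a4c alone. A pair of GAAA separated by any 2 bases, the type bound by interferon regulatory factors and found in 2.98% of promoters, and GAGGAAGT, a PU.1 type motif found in 2.44%, occurred in none of them.

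Because of this likeness, some reads of one copy could be counted for another. In the transcript with the longest coding sequence of each gene, the share of 50-base windows that also occurred in a transcript of another Ms4a gene was 8.48% for Ms4a4c, 6.08% for Ms4a6c, 5.66% for Ms4a6b, 4.19% for Ms4a4b and 2.92% for Ms4a6d, and 0 for Ms4a1, Ms4a4a and Ms4a7. Of 100-base windows only Ms4a4c (1.72%) and Ms4a4b (0.882%) shared any. The use of strand in counting is not given in the sources used here, and 4 of the genes overlap a gene on the opposite strand. The antisense genes at Ms4a1, Ms4a4c and Ms4a6b had 0 counts everywhere. Ms4a6c is the least certain of the 8, because 55.4% of its 50-base windows (993 of 1792) occur in its antisense gene BE692007, which had 3, 0 and 0 counts in the naive and 136, 127, 71 and 103 in the allograft libraries.

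Total counts lay between 29107326 and 53044907 per library, and values are given as shares of that total (CPM, scaled as for FPKM but without the gene length). A count of 0 allows up to 3 counts, or 0.0566 to 0.103 CPM depending on the library, and such limits cover counting error only. They do not cover transcripts lost before sequencing. Fold changes given below as at least a value rest on these limits and share this restriction. Naive replicate 2 stood apart. Mitochondrial transcripts made up 26.5% of its counts against 2.04% to 3.11% in the other 6 libraries, and 11 ILC2 markers summed to 1146 CPM there against 10360 to 14830 CPM elsewhere. Il1rl1, which encodes ST2, had 6.79 CPM in that library and 344 to 756 CPM in the others. It is called the library labelled naive replicate 2 where results rest on it, and the naive values are given in replicate order so that it can be told from the others. Genes with at least 1 count numbered 15820, 20254 and 13864 in the naive and 19235 to 21354 in the allograft libraries.

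The 8 genes together were more abundant in every allograft library than in every naive library. Their summed level was 11.8, 33.9 and 16.8 CPM in naive replicates 1 to 3 and 253, 156, 215 and 173 CPM in allograft replicates 1 to 4. For 5 of the 8 (Ms4a1, Ms4a4b, Ms4a6b, Ms4a6c and Ms4a6d) every allograft library lay above every naive library, which held for 12.5% of the 17015 genes tested (10.5% when library totals were scaled by TMM, the trimmed mean normalization of edgeR). For none of the 8 did every allograft lie below every naive library (2.15% of genes, or 3.19% with TMM), and Ms4a4a, Ms4a4c and Ms4a7 overlapped between the groups. Without naive replicate 2 the groups did not overlap for 6 of the 8, Ms4a4c being added, against 21.6% of genes, or 21.4% with TMM. These shares bear on genes chosen for their difference, so nothing is read from them.

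In the edgeR quasi-likelihood fit over all 7 libraries, 0 of the 8 genes passed a Benjamini-Hochberg adjusted p of 0.05, where 0.0353% of the 17015 tested genes did and 0.0294% did so with a higher level in allografts. At an unadjusted p under 0.05, 3 of the 8 were higher in allografts (Ms4a1, Ms4a4b and Ms4a6b), against 6.41% of genes. With DESeq2 the same 3 passed the adjusted threshold, against 5.95% of genes. Without naive replicate 2 the edgeR count was 6 of 8, all but Ms4a4a and Ms4a7, against 3.1% of 18037 genes. The fitted log2 change of the 8, allograft over naive, was positive for 6 and negative for 2, with a median of 2.85 (also 2.85 with Ms4a1 at its lower bound) beside -0.014 over all genes tested. It was positive for all 8 without naive replicate 2, with a median of 9.41, or 5.08 with the 6 genes at 0 in both other naive libraries at their lower bounds, beside 0.23 over all genes. Fewer cells that carry a transcript and less transcript per cell cannot be told apart in these pooled libraries.

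**Figure D1:**
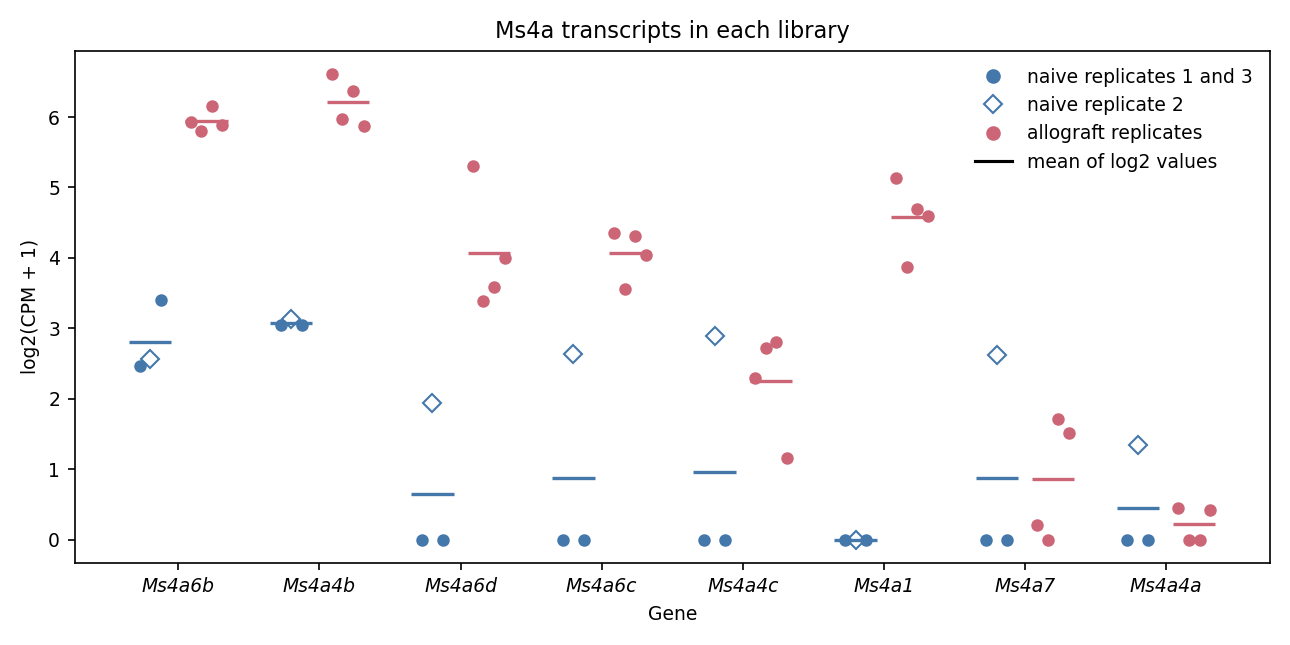
Level of each of the 8 Ms4a genes in every library as log2(CPM + 1), with naive libraries in blue, allograft libraries in red, naive replicate 2 as an open diamond and horizontal bars at the mean of the log2 values. Ms4a4b and Ms4a6b have counts in all 7 libraries, and the other 6 genes sit at 0 in naive replicates 1 and 3.

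Ms4a4b and Ms4a6b, the members known from T lymphocytes, were the only 2 of the 8 with counts in all 7 libraries. Ms4a4b (ENSMUSG00000056290, chr19:11443553-11467055, + strand) measured 7.26, 7.76 and 7.23 CPM in the naive libraries, in replicate order, and 96.7, 62.1, 81.9 and 57.7 CPM in the allograft libraries. The 3 naive libraries were nearly equal, the library labelled naive replicate 2 included, and the lowest allograft lay far above them. The means were 7.41 ± 0.299 CPM (SD, n = 3) and 74.6 ± 18.1 CPM (SD, n = 4), a ratio of 10.1, or 10.3 without naive replicate 2. On the log2 scale the edgeR fit gave 3.09 (SE 0.398) for Ms4a4b and 3.32 (SE 0.379) without that library.

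Ms4a6b (ENSMUSG00000024677, chr19:11516512-11531256, + strand) had 4.52, 4.92 and 9.59 CPM in the naive and 59.9, 54.7, 70.2 and 58.0 CPM in the allograft libraries. Here naive replicate 3 was the highest of the naive libraries, and the allografts were the most even of any of the 8 genes, with the highest 1.28 times the lowest. The means were 6.35 ± 2.82 CPM (SD, n = 3) and 60.7 ± 6.70 CPM (SD, n = 4), a ratio of 9.57, or 8.61 without naive replicate 2. The fitted log2 change of Ms4a6b was 3.06 (SE 0.421), and 3.05 (SE 0.448) without that library. The 2 genes stood in a similar proportion to each other in both groups, with 1.6, 1.58 and 0.754 Ms4a4b counts per Ms4a6b count in the naive and 1.61, 1.13, 1.17 and 0.995 in the allograft libraries.

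T cell genes differed between the groups in part. A list of 12 T cell markers without Ms4a genes summed to 371, 35.3 and 1121 CPM in the naive and 1094 to 1301 CPM in the allograft libraries. Of the 12, 3 had every allograft above every naive library, as they had without naive replicate 2. That held for 12.5% of the genes tested, or 21.6% without that library. The lowest sum was that of the library labelled naive replicate 2, which differed from the other naive libraries in this list but not in Ms4a4b. The levels of single markers differed widely. Cd3g, a chain of the T cell receptor complex, had 79.0, 6.00 and 124 CPM in the naive and 175 to 219 CPM in the allograft libraries, and the receptor constant gene Trbc1 had 76.5, 5.78 and 543 CPM against 481 to 584 CPM. Cd3e, another chain of the complex, had 0.154 to 1.24 CPM over the 7 libraries, and Cd8a had 0 to 2.25 CPM. The part of such cells in the Ms4a4b and Ms4a6b levels was not tested.

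The remaining 6 genes had 0 counts in naive replicates 1 and 3, as had 14.3% of the genes tested, and 5 of them had counts in naive replicate 2. The makeup of the family's counts differed between libraries accordingly. Ms4a4b and Ms4a6b made up all 625 counts of the 8 genes in naive replicate 1 (100%, 95% Wilson interval 99.4% to 100%) and all 733 in naive replicate 3 (99.5% to 100%). In the library labelled naive replicate 2 they made up 37.4% of 1541 counts (35.1% to 39.9%), the rest being Ms4a4c (19.0%), Ms4a6c (15.4%), Ms4a7 (15.3%), Ms4a6d (8.37%) and Ms4a4a (4.54%). In the allografts their share was 61.9% (61.0% to 62.8%), 74.8% (73.5% to 75.9%), 70.6% (69.7% to 71.6%) and 67.1% (65.8% to 68.3%) in replicates 1 to 4. The 4 allograft shares thus lay between that of naive replicate 2 and those of the other naive libraries, and their intervals did not overlap. The intervals treat every count as independent. The cDNA was amplified without molecular identifiers, so they may be too narrow.

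**Figure D2:**
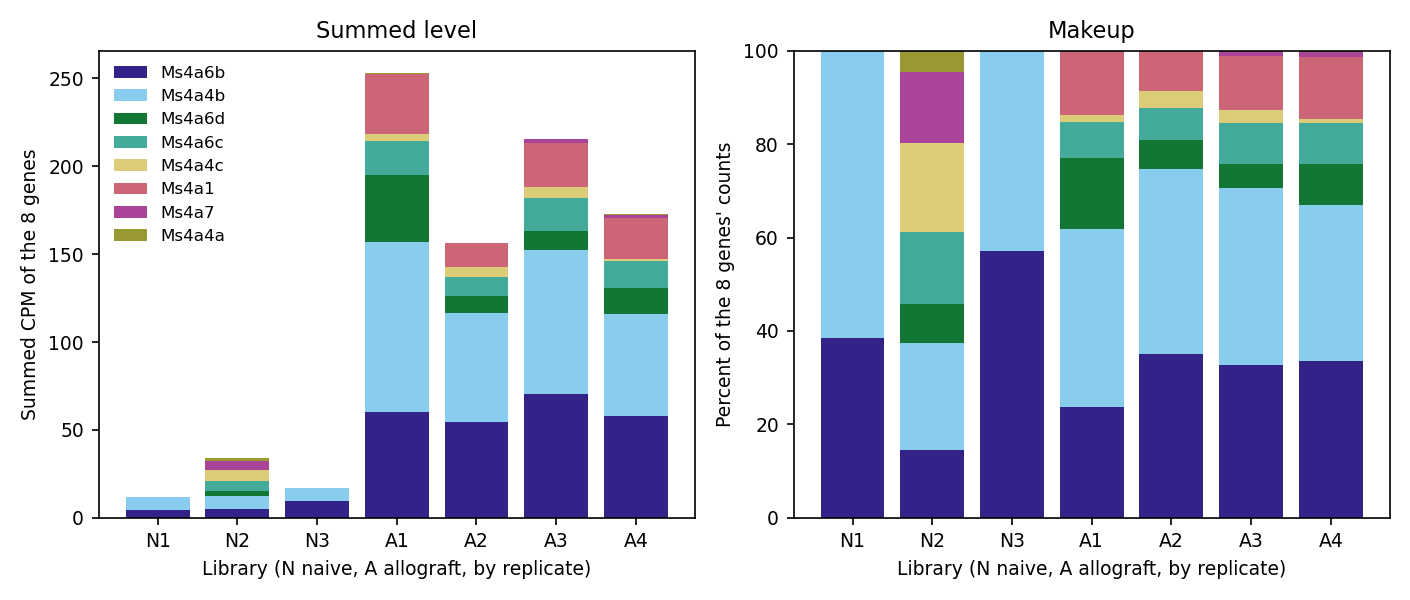
Left, summed CPM of the 8 genes in each library, stacked by gene. Right, the percent of the 8 genes' counts held by each gene, where naive replicates 1 and 3 hold Ms4a4b and Ms4a6b alone, naive replicate 2 holds 7 genes without Ms4a1, and Ms4a1 appears in the 4 allografts only.

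Ms4a6c and Ms4a6d, both known from monocytes and macrophages, followed 1 pattern. Ms4a6c (ENSMUSG00000079419, chr19:11469366-11482192, + strand) had 0, 5.21 and 0 CPM in the naive and 19.5, 10.8, 18.9 and 15.4 CPM in the allograft libraries. All 4 allografts were above the only naive library with counts. The group means were 1.74 ± 3.01 CPM (SD, n = 3) and 16.1 ± 3.99 CPM (SD, n = 4), a ratio of 9.28 over all 3 naive libraries. Against the 3-count floor of naive replicates 1 and 3 the allograft mean of Ms4a6c was at least 257-fold higher. The fitted log2 change was 2.64 with an SE of 2.20, so that over all 7 libraries it was hardly larger than its error. A fitted value of Ms4a6c or Ms4a6d without naive replicate 2 stands against 0 counts, and the lower bound takes its place.

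Ms4a6d (ENSMUSG00000024679, chr19:11586604-11604849, - strand), whose protein is known to restrain the NLRP3 inflammasome together with VSIG4, had 0, 2.84 and 0 CPM in the naive and 38.3, 9.44, 11.1 and 14.9 CPM in the allograft libraries. Allograft replicate 1 was the highest, 4.06 times the lowest, and all 4 were above naive replicate 2. The means were 0.945 ± 1.64 CPM (SD, n = 3) and 18.4 ± 13.5 CPM (SD, n = 4), a ratio of 19.5, and against the floor of naive replicates 1 and 3 the allografts were at least 294-fold higher. The fitted log2 change of Ms4a6d was 3.71 (SE 2.25).

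Ms4a4c (ENSMUSG00000024675, chr19:11404770-11427246, + strand), the close copy of Ms4a4b, did not share the even naive level of that gene. It had 0, 6.44 and 0 CPM in the naive and 3.91, 5.62, 6.02 and 1.24 CPM in the allograft libraries. The library labelled naive replicate 2 was higher than every allograft, and the allografts themselves spread 4.87-fold. The means of 2.15 ± 3.72 CPM (SD, n = 3) and 4.20 ± 2.18 CPM (SD, n = 4) differed by less than the naive SD, with a fitted log2 change of 0.38 (SE 2.23). The allograft mean of Ms4a4c was at least 66.9-fold above the floor of naive replicates 1 and 3.

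Ms4a1 (ENSMUSG00000024673, chr19:11249675-11266241, - strand), the CD20 gene, was the only one of the 8 at 0 counts in all 3 naive libraries. It had 34.1, 13.6, 25.0 and 23.1 CPM in allograft replicates 1 to 4, from 1502, 441, 1022 and 673 counts. All 4 allografts thus held at least 441 counts, with the highest 2.51 times the lowest, and the mean of 24.0 ± 8.41 CPM (SD, n = 4) was at least 376-fold above the mean floor of the naive libraries, or at least 382-fold without naive replicate 2. Ms4a1 made up 13.5%, 8.71%, 11.6% and 13.4% of the family's counts in the 4 allografts.

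Other B cell markers lay higher in the same libraries in part. A list of 12 B cell markers without Ms4a genes summed to 265, 51.4 and 261 CPM in the naive and 310 to 477 CPM in the allograft libraries, and 5 of the 12 had every allograft above every naive library, or 6 without naive replicate 2. In naive replicates 1 and 3, 8 of the 12 were at 0, among them Blk, Cd22 and Ebf1, as were 14.3% of the genes tested. Fcer2a, Fcrla and Pax5 were at 0 in all 3 naive libraries. Cd79a, a chain of the B cell receptor, had 0.264, 3.45 and 0 CPM in the naive and 36.4, 25.8, 30.1 and 21.1 CPM in the allograft libraries. Cd79b, the second chain, was not among the 5, with 117, 1.41 and 0 CPM in the naive and 34.6 to 47.8 CPM in the allograft libraries. Pax5, the factor that fixes B cell identity, had 2.5, 1.64, 0 and 4.19 CPM in the allografts. The part of B cells in the Ms4a1 level was not tested.

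Ms4a7 and Ms4a4a, the members best known from tissue macrophages, were highest in the library labelled naive replicate 2 and not in an allograft. Ms4a7 (ENSMUSG00000024672, chr19:11321039-11336146, - strand) had 0, 5.17 and 0 CPM in the naive and 0.159, 0, 2.28 and 1.86 CPM in the allograft libraries. Ms4a4a (ENSMUSG00000101389, chr19:11375523-11392790, + strand), whose protein is known to associate with the fungal receptor dectin-1, had 0, 1.54 and 0 CPM in the naive and 0.363, 0, 0 and 0.344 CPM in the allograft libraries. Both groups of both genes contained libraries without a count, so no direction was shown for either, with fitted log2 changes of -1.26 (SE 2.58) for Ms4a7 and -2.08 (SE 2.43) for Ms4a4a. Without naive replicate 2 the allograft means were at least 17.1-fold (Ms4a7) and 2.82-fold (Ms4a4a) above the floor of the other naive libraries, from 3 and 2 allografts with counts.

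A list of 14 macrophage and monocyte markers without Ms4a genes summed to 208.5, 358 and 994 CPM in the naive and 530.5 to 805 CPM in the allograft libraries. Most of each sum came from Ccr2 and Lyz2, the only 2 of the 14 with a count in naive replicate 1. Ccr2 had 206, 5.74 and 514 CPM in the naive and 339 to 614 CPM in the allograft libraries. Lyz2 had 2.49, 183 and 432 CPM against 122 to 191 CPM. None of the 14 kept the groups apart, where 12.5% of the genes tested had every allograft above. Without naive replicate 2 every allograft was above in 4 of the 14, against 21.6% of genes. In naive replicates 1 and 3, 8 of the 14 were at 0, among them Adgre1, C1qa and Cd68, as were 14.3% of the genes tested. Naive replicate 2 had 12 of the 14 with a count, and the allografts had 11 to 13. C1qa, a complement gene of tissue macrophages, had 0, 13.1 and 0 CPM in the naive and 1.23 to 4.06 CPM in the allograft libraries, and Adgre1, which encodes the macrophage surface protein F4/80, had 0, 6.51 and 0 CPM against 0 to 3.02 CPM. In all, 7 of the 14 were highest in naive replicate 2, as Ms4a7 and Ms4a4a were, and 7 were highest elsewhere, among them Cd68 (14.9 CPM there and 27.8 CPM in allograft replicate 1), Ly6c2 (5.85 and 10.7 CPM) and Lyz2 (183 CPM there and 432 CPM in naive replicate 3). The share of all genes highest in naive replicate 2 was not computed, so nothing is read from the 7. Ms4a6c and Ms4a6d were lower in naive replicate 2 than in any allograft. The part of macrophages in any of these 4 levels was not tested.

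**Figure D3:**
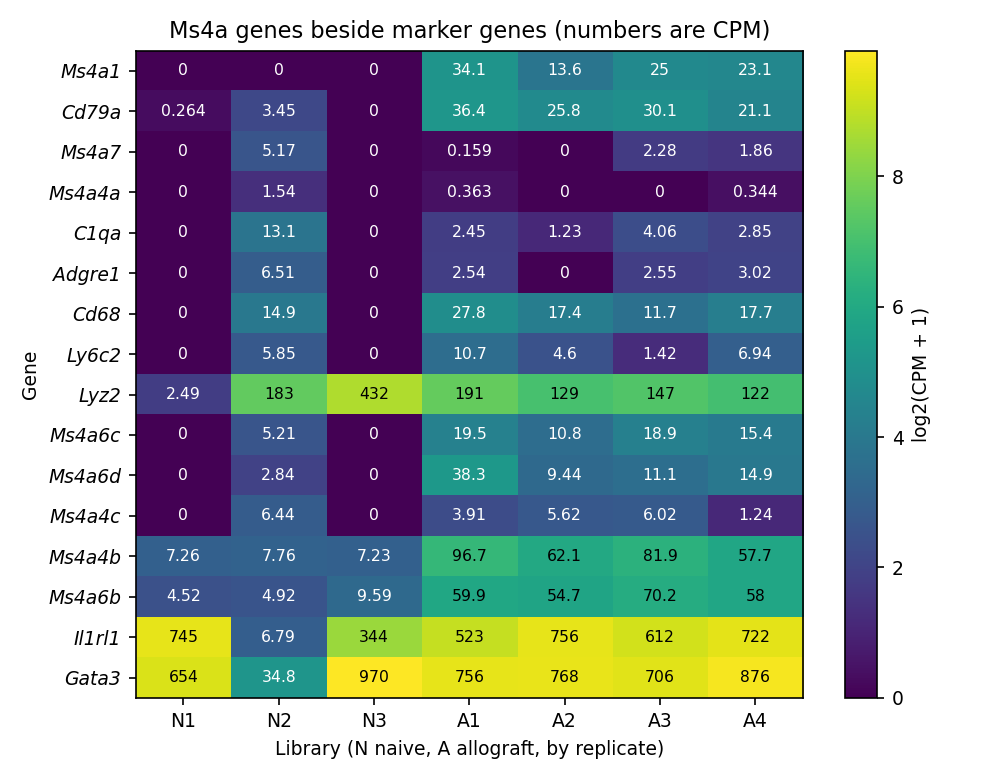
CPM of the 8 Ms4a genes beside markers of B cells (Cd79a), macrophages and monocytes (C1qa, Adgre1, Cd68, Ly6c2, Lyz2) and ILC2s (Il1rl1, Gata3) in each of the 7 libraries, with the numbers in the cells giving CPM. Ms4a1 has counts in the 4 allografts, where Cd79a is highest, and Ms4a7 and Ms4a4a are highest in naive replicate 2, as are C1qa and Adgre1 but not Cd68, Ly6c2 and Lyz2.

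To compare genes with one another, levels were taken per gene length as FPKM. In the allografts the order was Ms4a6b (11.7 ± 1.32 FPKM, SD, n = 4), Ms4a6d (9.18 ± 6.66), Ms4a4b (7.33 ± 1.77), Ms4a6c (6.80 ± 1.68), Ms4a1 (3.34 ± 1.17), Ms4a4c (2.07 ± 1.08), Ms4a7 (0.205 ± 0.225) and Ms4a4a (0.176 ± 0.204). Neighbours in this order overlapped in their library values, except Ms4a4c and Ms4a7, whose ranges were apart. The place of Ms4a6d rested on allograft replicate 1, with 19.0 FPKM against 4.71 to 7.46 FPKM in the others. Dividing mean allograft CPM by the length of the transcript with each gene's longest coding sequence instead of all its exons placed Ms4a4b (15.7 CPM per kb) above Ms4a6d (13.0 CPM per kb), since the exons of Ms4a4b cover 8780 bases and that transcript 4750. In the naive libraries mean FPKM was 1.254 for Ms4a6b, 1.12 for Ms4a4c, 0.775 for Ms4a6c, 0.749 for Ms4a4b, 0.558 for Ms4a4a, 0.496 for Ms4a6d, 0.354 for Ms4a7 and 0 for Ms4a1. Of these only Ms4a6b and Ms4a4b rested on more than 1 library.

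**Figure D4:**
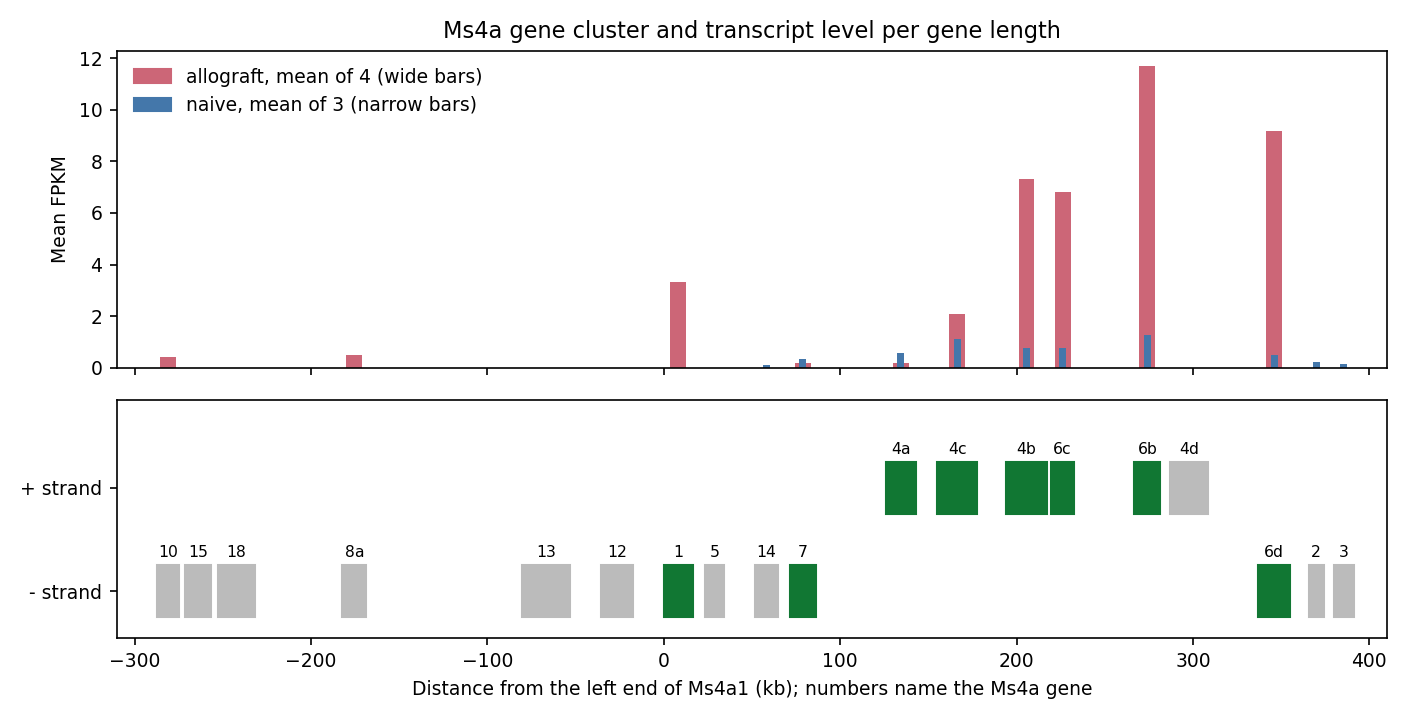
Top, mean FPKM of each Ms4a gene at its place in the cluster, with wide red bars for the 4 allografts and narrow blue bars for the 3 naive libraries. Bottom, the genes on each strand by distance from the left end of Ms4a1 in kb, the 8 described genes in green and the others in grey, where the 4 genes with the highest allograft means lie from Ms4a4b to Ms4a6d.

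The other genes of the cluster had few counts. Of the 11 further Ms4a rows, 6 had no count in any library. Ms4a2, which encodes the beta chain of the high-affinity IgE receptor of mast cells and basophils, had 90, 28 and 0 counts in the naive and 0, 0, 0 and 5 in the allograft libraries. A list of 10 mast cell and basophil markers summed to 442, 105 and 752 CPM in the naive and 345 to 377 CPM in the allograft libraries, above naive replicate 2 and below the other naive libraries. Of the 10, 3 (Fcer1a, Prss34 and Hdc) had every allograft above every naive library, against 12.5% of the genes tested. None of the 10 had every allograft below, against 2.15% of genes. Fcer1a, of the same receptor as Ms4a2, had 5.60, 0 and 0 CPM in the naive and 9.42 to 20.3 CPM in the allograft libraries. Without naive replicate 2, Cpa3, Mcpt4, Tpsb2 and Cma1 had every allograft below, and 3 of the 10 had every allograft above (21.6% of genes). The share of all genes below in that comparison was not computed, so nothing is read from these counts. Ms4a8a had 0 counts in all naive libraries and 54, 40, 0 and 50 in the allografts, at least 16.4-fold above the floor. Ms4a3 had counts in naive replicate 3 only (42), Ms4a10 in allograft replicate 2 only (64) and Ms4a14 in naive replicate 2 only (56). The related genes Tmem176a and Tmem176b, which encode ion-conducting proteins of the same superfamily outside the cluster, had fitted log2 changes of -1.03 (SE 0.679) and -1.39 (SE 0.532), neither past the adjusted threshold. Without naive replicate 2 that of Tmem176a was 0.46 (SE 0.210) and that of Tmem176b -0.75 (SE 0.434).

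Genes whose products are known to work beside MS4A proteins were counted as a list of 18, of which 17 were tested and Vsig4 had no count in any library. None of the 17 passed the adjusted threshold of edgeR over all 7 libraries, where 0.0353% of genes did. With DESeq2 1 of them passed, Nlrp3, against 5.95% of genes. At an unadjusted p under 0.05 in edgeR, 5 were higher in allografts, against 6.41% of genes, among them Nlrp3, H2-Aa, H2-Ab1 and Syk. In 13 of the 17 the fitted change was positive, and the median was 0.94 (also 0.94 with Nlrp3 at its lower bound), beside the -0.014 of all genes. It was positive in 14 of the 17 without naive replicate 2, with a median of 3.40, or 3.35 with 5 genes at their lower bounds, beside 0.23 over all genes. Nlrp3, the inflammasome sensor, had 0 counts in all naive libraries and 1.79, 2.25, 3.67 and 2.16 CPM in the allografts, at least 38.7-fold above the floor. H2-Ab1, a class II antigen presentation gene, had 55.0, 432 and 170 CPM in the naive and 1496, 1117, 1196 and 971 CPM in the allograft libraries, and H2-Aa likewise had 23.1, 188 and 71.5 CPM against 433 to 626 CPM. A list of 8 dendritic cell markers, cells rich in class II transcripts, summed to 12.7, 29.7 and 31.8 CPM in the naive and 85.3 to 113 CPM in the allograft libraries, with 5 of the 8 above in every allograft (7 without naive replicate 2), and their part in these values was not tested. A list of 6 NK cell markers summed to 174, 17.9 and 88.6 CPM against 232 to 324 CPM, with 4 of the 6 above. Every allograft lay above every naive library for 12.5% of the genes tested, or 21.6% without naive replicate 2. Syk, the kinase that signals behind dectin-1 and Fc receptors, had 1.62, 0.725 and 0 CPM against 10.2 to 14.7 CPM.

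The partners of single members did not all follow their pattern. Tnfrsf18, which encodes GITR, had 352, 25.8 and 1020 CPM in the naive and 322 to 398 CPM in the allograft libraries, so the allografts lay inside the naive range while Ms4a4b did not overlap. Clec7a, which encodes dectin-1, had 0, 1.67 and 0 CPM against 7.52, 6.51, 1.89 and 5.67 CPM, above naive replicate 2 in all 4 allografts where Ms4a4a was below it. Without naive replicate 2, 6 of the 17 partners passed, against 3.1% of the genes tested in that fit. All 6 were higher in allografts, among them Nlrp3, Cd40, Clec7a, H2-Aa and H2-Ab1.

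The genes whose pattern over the 7 libraries was most like each member were ranked by the root mean square distance of centred log2 CPM (prior count 2) among 14941 genes with a mean of at least 1 CPM. Nearest to Ms4a4b were Mir5107 (0.351), Cd83 (0.367) and Ms4a6b (0.383). Nearest to Ms4a6b were Stx11 (0.337), Tagap (0.349) and Susd6 (0.357). Nearest to Ms4a6c were Gbp3 (0.297), the granulocyte and monocyte gene S100a9 (0.345) and Ifi211 (0.354). Nearest to Ms4a6d were Xlr (0.411), S100a9 (0.438) and the immunoglobulin gene Iglc3 (0.49). Nearest to Ms4a1 were Acod1 (0.416), Il12b (0.497) and Slc2a6 (0.522), all at 0 in the 3 naive libraries as Ms4a1 was. None of them is in the B cell list, of which only Fcer2a, Fcrla and Pax5 were at 0 in those libraries. Few genes of that list could therefore come near, and nothing is read from their absence. Nearest to Ms4a4c were 2310022B05Rik (0.263), Cmtr2 (0.328) and Cd320 (0.431), nearest to Ms4a7 were Alas2 (0.286), Ccser1 (0.396) and Aldh1a1 (0.416), and nearest to Ms4a4a were Snhg11 (0.682), Pald1 (0.700) and Trpm3 (0.704). With 3 naive libraries, of which 1 stood apart, these distances describe the libraries at hand.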

How the data were processed

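RNA of 3 naive and 4 allograft pools was amplified as full-length cDNA with a single-cell kit, per the labels' protocols, without molecular identifiers. The submitters' processing notes name FastQC 0.11.5, STAR 2.5.3a, StringTie 1.3.1c, DESeq2 1.16.1 and the build mm10 without giving their roles, and the counting rule and annotation are not given in the sources used here. The authors deposited whole-number counts and FPKM for 55335 identifiers. Over 7340 genes with at least 100 counts everywhere, the ratio of FPKM to CPM differed between libraries only by a factor common to all genes (SD at most 0.00242), so both tables carry the same measurement.

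The 8 genes, the partner and marker lists and the naming rule were chosen with earlier results of these data known. The naming rule took the 8 genes, other family genes with at least 10 counts in a library, partners past the threshold or else the 3 with the smallest p and the partners of described genes, and the 3 genes most like each of the 8. The fit was edgeR 4.0.16 in R 4.3.3, with TMM normalization, filterByExpr, a quasi-likelihood test without covariates and Benjamini-Hochberg adjustment over all 17015 tested genes at 0.05. Its p-values measure the spread between pools. The alternatives were DESeq2 1.42.0, its size factors in edgeR, no filter, a mean of at least 50 counts, limma 3.58.1 on log2(FPKM + 1) and log2(FPKM + 0.1), a replicate block and leaving out each library. The fit was tested on simulated data. Values of some listed genes are not reported here. Positions, transcripts and coding identity came from GENCODE M21, and promoters from RefSeq (GRCm38.p6).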

Additional observations from a re-analysis of the deposited data

Results flagged for a closer look

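Among 22 values examined for 1 allograft library standing far from the other 3, 1 did so, where chance gives about 1 in 20 groups. The summed level of the 12 B cell markers was 309.7 CPM in allograft replicate 4, whereas the other 3 lay between 465.8 and 476.9 CPM. The gap to the nearest library was 0.934 of the group's range. The single gene Ighm held most of this sum in every allograft, with 226.2 CPM in replicate 4 and 334.8 to 377.5 CPM in the others. The flag therefore does not describe the B cell list as a whole. Ms4a1 did not stand apart in that library, with 23.1 CPM inside the allograft range of 13.6 to 34.1 CPM.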

How the results depend on the processing

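Over all genes, 6 passed the adjusted threshold with edgeR. The count was 1012 with DESeq2, 76 with limma on log2(FPKM + 1) and 201 on log2(FPKM + 0.1), and 0 to 560 when each library was left out in turn, where leaving out naive replicate 1 gave 107, naive replicate 2 gave 560 and each allograft library gave 0 (848 to 1074 at an unadjusted p under 0.05). Of the 8 Ms4a genes, 3 passed with DESeq2, 1 and 3 with the limma scales in that order, 2 without naive replicate 1 and 0 to 6 over the left-out libraries. Of the 17 partners, 1 passed with DESeq2, 1 and 2 with the limma scales, and 0 to 6 over the left-out libraries. DESeq2 size factors in the edgeR fit moved the median of all genes from -0.014 to -0.20. Ms4a4b, Ms4a6b, Ms4a1, Ms4a6c and Ms4a6d kept a positive change under all 14 alternatives, at 2.23 to 3.32 for Ms4a4b, 2.52 to 3.38 for Ms4a6b, 2.08 to 13.1 for Ms4a1, 2.08 to 12.33 for Ms4a6c and 2.72 to 12.54 for Ms4a6d. Ms4a4c, Ms4a7 and Ms4a4a changed direction, and the cause was not tested. Ms4a4c had -0.0037 with DESeq2 size factors, -0.0047 with DESeq2 and -0.17 to 10.39 over the left-out libraries. Ms4a7 had 0.059 on log2(FPKM + 0.1), 4.55 with the replicate block and -1.81 to 8.42 over the left-out libraries, and Ms4a4a had -2.64 to 5.86 there. The fitted values without naive replicate 2 stand against 0 counts and depend on the prior count. Ms4a4a was not tested with the mean filter or without allograft replicate 1 or 4, nor Ms4a7 without allograft replicate 3 or 4.

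Replicate numbers did not pair the libraries. Deviations of libraries with the same number correlated at 0.0167, -0.018 and 0.0368, and not every library correlated best with its own number. With the replicate block 0 genes passed (252 at an unadjusted p under 0.05), and 0 Ms4a genes and 0 partners. At this depth a count of 0 leaves room, by counting error alone, for a level of up to 0.0566 to 0.103 CPM, depending on the library. Transcripts lost before sequencing are not covered by that limit.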
